A study of Homo sapiens with 6 samples.

Results

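The RAB GTPases were taken as every gene symbol made of RAB, a number and at most 1 letter and 1 digit in any of the per-library expression tables. The rule gave 58 symbols of 17789 in all, each at a single locus, and 52 of them passed the filter on low values described below. The 6 RNA-seq libraries were labelled as A549, a cell line from a human lung cancer. For 3 control libraries the genotype is given as wild type. For the other 3, FOXD3, a forkhead transcription factor, was knocked down with pooled small interfering RNAs carried into the cells by a Lipofectamine reagent, and the loss was checked at 72 h. What the control cells were treated with is not stated. Nothing in the labels says that replicates were separate cultures, and p-values therefore describe only the spread among these libraries, which may be technical.

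RAB proteins are small GTPases that mark membrane compartments and direct vesicle traffic. Each cycles between an inactive GDP-bound form, held in the cytosol by a GDP dissociation inhibitor (GDI), and an active GTP-bound form on a membrane, where it recruits effectors such as tethers, motors and kinases. Exchange factors switch a RAB on, GTPase-activating proteins switch it off, and a geranylgeranyl lipid added with the help of a RAB escort protein lets it bind membrane. In epithelial cells, secretory members carry cargo to the cell surface, early endosomal members sort what has been taken up, recycling members return receptors to the surface, late endosomal members lead to lysosomes, and members at the endoplasmic reticulum (ER) and Golgi serve the early secretory route.

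Values are FPKM, fragments per kilobase of transcript scaled to the mapped fragments of the library, so levels can be compared between genes. The files hold no read counts. Low values of single-exon genes came closest to whole fragments at 6300000 to 7200000 fragments in 5 libraries, while knockdown replicate 3 gave 18800000 from 8 genes and was not resolved, so depth is known only roughly. FOXD3 stood at 0.152, 0.291 and 0.134 FPKM in the control libraries and at 0.0749 FPKM in knockdown replicate 2, and the tables of knockdown replicates 1 and 3 did not list it. An exact permutation test (two-sided) returned p = 0.1, the smallest that 3 against 3 allows. All FOXD3 values were under the filter of 0.5 FPKM, so the size of its loss cannot be judged from these libraries. The epithelial keratin KRT8 was abundant in every library (1900.4 to 3211 FPKM). None of the markers of leukocytes, fibroblasts and endothelium, 6 of each, averaged 5 FPKM, and MS4A1 and DCN were not listed in any library. The summed markers were lower in every knockdown than in every control library: 2.86 to 4.12 against 1.45 to 1.97 FPKM for leukocytes, 3.61 to 4.58 against 2.96 to 3.58 FPKM for fibroblasts and 6.63 to 7.83 against 3.997 to 4.25 FPKM for endothelium. Single genes held most of each sum. Means in control and knockdown libraries were 2.92 and 1.25 FPKM for CD14, and 3.91 and 3.20 FPKM for COL1A1. They were 4.30 and 2.09 FPKM for ESAM, and 2.73 and 1.82 FPKM for CDH5. CD3E, COL3A1 and PECAM1 had higher means in knockdown libraries, all at 0.105 FPKM or less. The sums thus do not describe each marker, and the part of these markers in the results was not tested. A549 is known to lack CDKN2A through a deletion, yet CDKN2A stood at 154 to 155 FPKM in control and 126 to 129 FPKM in knockdown libraries, and the mesenchymal filament gene VIM at 4.25 FPKM or less. Of the 12 genes checked because of the A549 label, 8 averaged 5 FPKM or more. These were KRT8, KRT18, EPCAM, AKR1B10, ALDH1A1, CDKN2A, CDKN2B and MTAP. The list is not limited to genes that A549 expresses, as CDKN2A is among the 8, so the count is no measure of likeness to the line. AKR1B10 averaged 391 FPKM in control and 752 FPKM in knockdown libraries, and ALDH1A1 31.7 and 98.1 FPKM. CDKN2B averaged 16.1 and 8.41 FPKM, and MTAP 10.5 and 12.2 FPKM. Whether the cells are A549 was not tested, and the name is used only as the label. Small nucleolar RNAs held 4.83% of the FPKM total in knockdown replicate 2 and 0.975% to 1.92% in the others.

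More RAB transcripts fell than rose in the knockdown libraries. All log2 changes below compare log2(FPKM + 1) in knockdown with control, a scale on which the change of low genes is understated. A gene is called at a Benjamini-Hochberg adjusted p under 0.05 in limma, over the 13340 genes that averaged 0.5 FPKM or more. Of the 52 tested members, 27 fell (51.9%, against 37.9% of all genes tested) and 8 rose (15.4%, against 25.6%), while 17 did not pass. The share called in either direction, 67.3%, was near the 63.5% of all genes. Falls of 0.5 or more on the log2 scale were found for 15 members (28.8%, against 20.8% of all genes), and a rise of that size for 1 member (against 10.7% of all genes). Such rises numbered 3 under median scaling. They numbered 2 with quantile normalization, with a smaller pseudocount (0.1 or 0.5) and without control replicate 2, knockdown replicate 1 or knockdown replicate 3, and without control replicate 3 the 1 member was RAB21 and not RAB8A. The median log2 change was -0.23 over the tested members and -0.09 over all genes. Quantile normalization moved the all-gene median to 0.03 and the members' median to -0.13, with 21 members lower and 9 higher, and median scaling left 24 lower and 10 higher. Of all called genes, 40.4% were higher, against 49.0% after median scaling and 52.4% after quantile normalization. In these bulk samples, fewer cells of a type and less RNA per cell cannot be told apart.

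**Figure D1:**
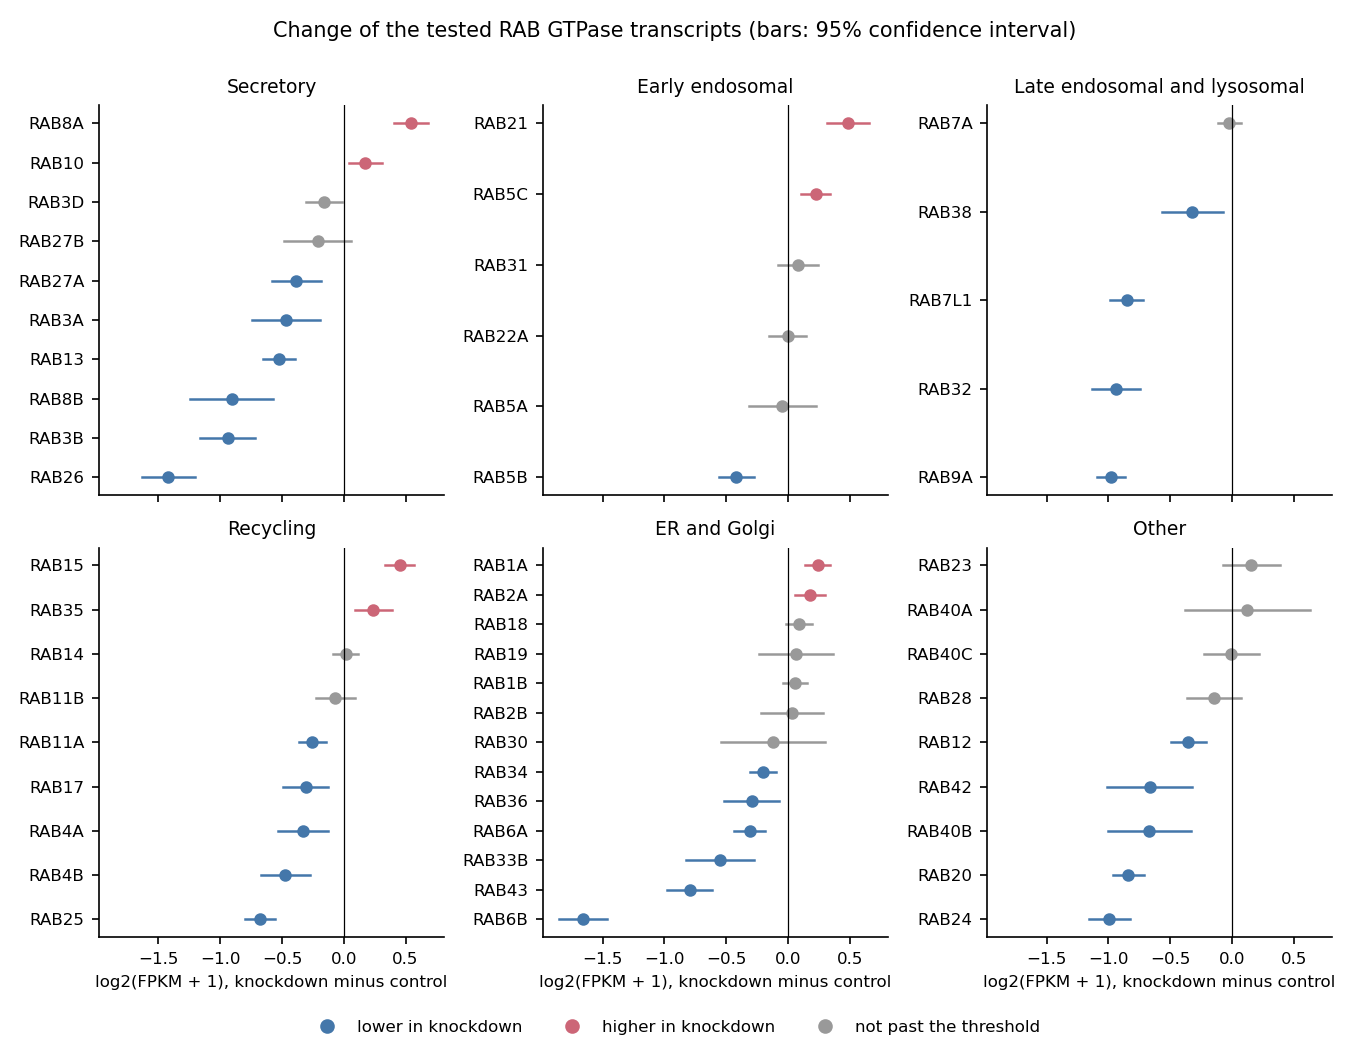
Change of the 52 tested RAB transcripts by role, as log2(FPKM + 1) in knockdown minus control (horizontal axis), with points for the estimate and bars for limma's 95% confidence interval over 3 libraries a group. Colours mark members lower or higher past the threshold, and the late endosomal panel holds 4 lower members beside RAB7A, whose interval spans 0.

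The counts by role here and below rest on 5 to 13 tested members, beside 37.9% of all genes lower and 25.6% higher. Among the secretory members 6 of the 10 tested fell and 2 rose, with a median log2 change of -0.43. RAB26, a vesicle-associated member of secretory cells (Entrez 25837, chromosome 16, 2198651 to 2204141, hg19), fell furthest. It read 15.3, 17.6 and 16.8 FPKM in the control libraries and 6.39, 5.07 and 5.25 FPKM in the knockdown libraries. The lowest control value was thus well above the highest knockdown value, and the mean was 2.97-fold lower (log2 change -1.42, SE 0.093, limma adjusted p = 7.5e-06).

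The RAB3 group acts in regulated exocytosis. RAB3B (Entrez 5865, chromosome 1, 52373628 to 52456436, hg19) read 2.83, 3.28 and 3.28 FPKM in control and 1.13, 1.27 and 1.06 FPKM in knockdown libraries, a 2.71-fold lower mean without overlap of the groups (log2 change -0.94, SE 0.097, adjusted p = 7.2e-05). Its paralog RAB3A read 3.66, 3.62 and 3.54 against 2.56, 1.79 and 2.70 FPKM and fell as well (log2 change -0.47, adjusted p = 0.0086). The call on RAB3A was lost under quantile normalization (adjusted p = 0.146, with a lowest value of 0.00618 over the alternatives). RAB3D, the most abundant of the group, read 12.6, 12.6 and 12.3 against 11.4, 10.4 and 11.5 FPKM, groups that did not overlap, but missed the threshold (log2 change -0.16, adjusted p = 0.053).

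The RAB8 paralogs, which carry Golgi cargo to the plasma membrane and cilium, went in opposite directions. RAB8A (Entrez 4218, chromosome 19, 16222490 to 16244445, hg19) read 30.4, 27.9 and 26.3 FPKM in control and 40.5, 41.7 and 42.2 FPKM in knockdown libraries. All 3 knockdown values were above the control values, and this was the largest rise among the tested members (1.47-fold, log2 change 0.54, SE 0.060, adjusted p = 0.00011). RAB8B (Entrez 51762, chromosome 15, 63481728 to 63559973, hg19) read 7.30, 10.6 and 11.3 FPKM in control and 5.13, 4.31 and 4.52 FPKM in knockdown libraries. Control replicate 1 lay below the other 2 control libraries but still above all 3 knockdown libraries (log2 change -0.91, SE 0.15, adjusted p = 0.00083). RAB10, a close relative of RAB8 in polarized delivery, rose slightly, from 83.3 ± 6.11 to 94.0 ± 2.40 FPKM (mean ± SD, n = 3 here and below). Its log2 change of 0.17 (limma adjusted p = 0.029) lost its call under quantile normalization (0.177), without the variance trend (0.0649) and without knockdown replicate 1 (0.0766) or 3 (0.0946), with a lowest value of 0.00287 over the alternatives.

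RAB13, which serves junction and receptor delivery in epithelia (Entrez 5872, chromosome 1, 153954128 to 153958806, hg19), was among the most abundant members that fell. It read 88.7, 84.7 and 93.6 FPKM in control and 64.5, 58.2 and 62.5 FPKM in knockdown libraries (log2 change -0.52, SE 0.056, adjusted p = 8.8e-05), again without overlap. RAB27A, which docks secretory granules and lysosome-related organelles, fell from 3.50 ± 0.278 to 2.44 ± 0.0493 FPKM (log2 change -0.38, limma adjusted p = 0.0048), a call lost under quantile normalization (adjusted p = 0.272, lowest over the alternatives 0.00184). RAB27B, its paralog, stood at 6.70 ± 1.04 and 5.63 ± 0.663 FPKM, with overlapping groups (log2 change -0.21, 95% confidence interval -0.48 to 0.06).

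The 6 early endosomal members divided, with 2 higher, 1 lower and a median log2 change of 0.04. RAB21, which is tied to integrin traffic (Entrez 23011, chromosome 12, 72148658 to 72181150, hg19), read 10.9, 12.5 and 12.2 FPKM in control and 16.1, 18.4 and 16.6 FPKM in knockdown libraries. Every knockdown value was above every control value (1.44-fold higher, log2 change 0.49, SE 0.075, adjusted p = 0.00066). The RAB5 paralogs, the organizers of the early endosome, did not share a direction. RAB5B read 47.1, 41.6 and 43.9 FPKM in control and 33.0, 31.2 and 34.4 FPKM in knockdown libraries and fell (log2 change -0.42, adjusted p = 0.00051). RAB5C read 80.9, 72.3 and 73.8 FPKM in control and 86.3, 90.7 and 88.3 FPKM in knockdown libraries and rose (log2 change 0.22, adjusted p = 0.0061). In neither paralog did the groups overlap. RAB5A, the least abundant of the 3, read 8.32, 11.1 and 10.9 against 11.0, 9.0001 and 9.18 FPKM, with overlap (log2 change -0.04, 95% confidence interval -0.31 to 0.23). RAB31 and RAB22A, related members of the endosome and trans-Golgi route, did not pass, with 95% confidence intervals of -0.08 to 0.24 and -0.15 to 0.15 for the log2 change.

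Of the late endosomal and lysosomal members 4 of 5 tested fell, with a median log2 change of -0.85. RAB9A, which acts in transport between late endosomes and the trans-Golgi (Entrez 9367, chromosome X, 13707240 to 13727944, hg19), read 31.4, 30.6 and 31.4 FPKM in control and 15.6, 15.6 and 14.9 FPKM in knockdown libraries. The libraries of each group lay close together and far from the other group (2.03-fold lower, log2 change -0.98, SE 0.050, adjusted p = 2.5e-06). RAB32, of lysosome-related organelles and mitochondria (Entrez 10981, chromosome 6, 146864828 to 146876086, hg19), read 40.0, 34.0 and 33.1 FPKM in control and 17.1, 19.6 and 17.7 FPKM in knockdown libraries (log2 change -0.94, SE 0.083, adjusted p = 3.3e-05). RAB7L1, now named RAB29, a partner of the kinase LRRK2 (Entrez 8934, chromosome 1, 205737114 to 205744610, hg19), read 17.5, 18.5 and 17.6 FPKM in control and 9.79, 9.21 and 9.38 FPKM in knockdown libraries (log2 change -0.85, SE 0.058, adjusted p = 9.0e-06). In both of these genes the groups were clear of each other. RAB38, the melanosomal relative of RAB32, read 16.3, 12.9 and 14.4 FPKM in control and 11.1, 10.2 and 13.1 FPKM in knockdown libraries. The RAB38 groups overlapped, and its call (log2 change -0.32, adjusted p = 0.030) was lost in 7 of 14 alternatives, with adjusted p from 0.0129 to 0.1002. Among these were the fits without control replicate 1 (0.0831) or 3 (0.0659) and without knockdown replicate 1 (0.0808) or 2 (0.1002).

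RAB7A, the main RAB of late endosomes and lysosomes, stood apart from these. It read 188, 185 and 180.4 FPKM in control and 185, 184 and 176 FPKM in knockdown libraries, and the groups overlapped. Its log2 change was -0.02 with a 95% confidence interval of -0.11 to 0.07, which does not reach the changes of RAB9A, RAB32 or RAB7L1. RAB9B, the low paralog of RAB9A, was under the filter and untested, at 0.310, 0.361 and 0.399 FPKM in control and 0.0824, 0.0430 and 0.125 FPKM in knockdown libraries, without overlap.

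**Figure D2:**
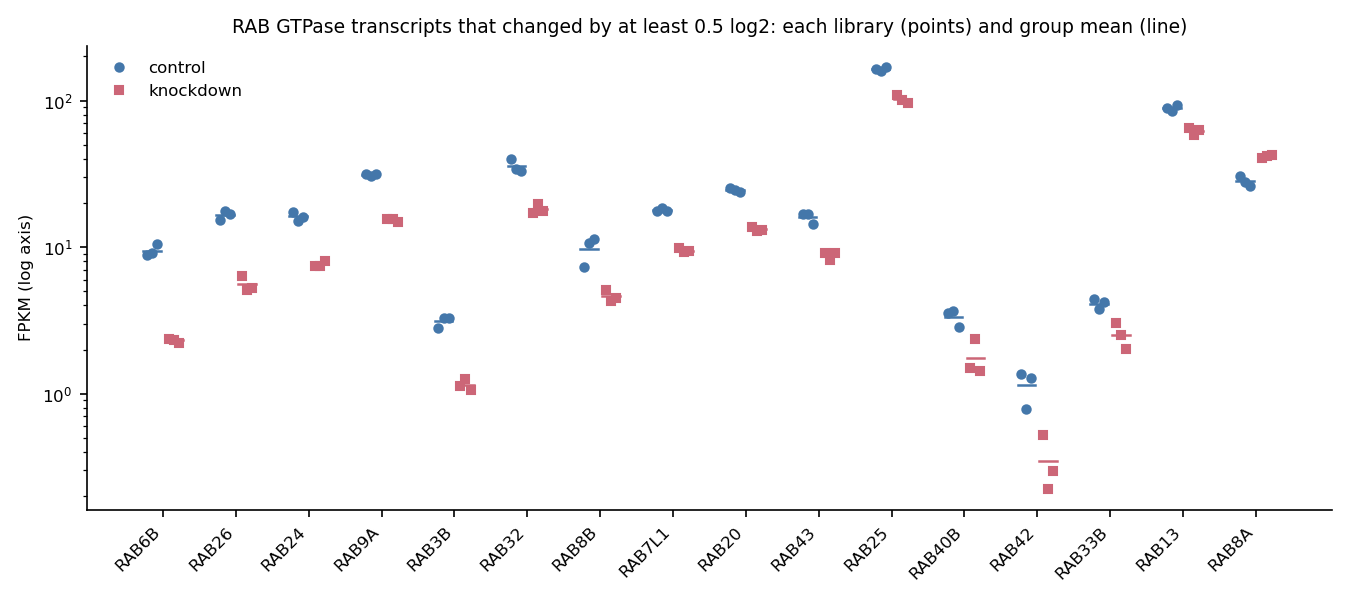
FPKM (log axis) of the 16 RAB members past the threshold with a log2 change of at least 0.5 in size, with a point for each of 3 control (blue circles) and 3 knockdown (red squares) libraries and a line for the group mean. The groups do not overlap in any of the 16, which were picked by their change in these same libraries, so this is no separate result. RAB8A is the member that was higher in knockdown libraries.

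Of the 9 recycling members 5 fell and 2 rose. RAB25, the epithelial member of the RAB11 group that returns integrins and receptors to the surface (Entrez 57111, chromosome 1, 156030966 to 156040295, hg19), was among the 3 most abundant RABs. It read 163, 158 and 170.4 FPKM in control and 108, 101 and 96.6 FPKM in knockdown libraries, without overlap (1.60-fold lower, log2 change -0.68, SE 0.053, adjusted p = 1.8e-05). RAB11A, the broadly expressed recycling RAB, read 43.96, 44.5 and 47.1 against 37.1, 37.2 and 38.8 FPKM and fell (log2 change -0.25, adjusted p = 0.0020). RAB11B read 29.8, 34.2 and 30.03 against 30.9, 30.3 and 28.2 FPKM, with overlap (log2 change -0.07, 95% confidence interval -0.22 to 0.09).

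Both RAB4 paralogs of the fast recycling route fell. RAB4A went from 26.3 ± 2.40 to 20.7 ± 2.03 FPKM (log2 change -0.33, limma adjusted p = 0.011) and RAB4B from 16.4 ± 0.975 to 11.5 ± 1.199 FPKM (log2 change -0.47, limma adjusted p = 0.0015). RAB4B shares its locus with the readthrough genes MIA-RAB4B and RAB4B-EGLN2, neither above 0.846 FPKM in any library. RAB17, an epithelial member of apical recycling, fell from 10.6 ± 0.818 to 8.34 ± 0.535 FPKM (log2 change -0.31).

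RAB15 and RAB35 rose. RAB15, of early and recycling endosomes, read 36.3, 35.4 and 37.7 FPKM in control and 51.5, 47.8 and 51.7 FPKM in knockdown libraries (1.38-fold higher, log2 change 0.45, adjusted p = 0.00012). Its locus overlaps that of CHURC1-FNTB, which also rose, from 6.96 ± 0.211 to 9.46 ± 1.30 FPKM (log2 change 0.39, limma adjusted p = 0.0087). The division of reads between these symbols is uncertain. RAB35, of endocytic recycling, went from 23.9 ± 0.776 to 28.5 ± 2.18 FPKM (log2 change 0.24, limma adjusted p = 0.011). RAB14, between Golgi and endosomes, did not pass, at 36.4 ± 0.519 and 36.9 ± 0.788 FPKM (95% confidence interval -0.09 to 0.12 for the log2 change).

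Among ER and Golgi members 6 of 13 tested fell (46.2%, against 37.9% of all genes) and 2 rose (15.4%, against 25.6%). The share called in either direction, 61.5%, was near the 63.5% of all genes. The largest fall among the tested members was here. RAB6B, a Golgi member known mainly from neurons (Entrez 51560, chromosome 3, 133543080 to 133614691, hg19), read 8.79, 9.10 and 10.5 FPKM in control and 2.37, 2.33 and 2.22 FPKM in knockdown libraries. Its control values were far above all knockdown values (4.10-fold lower, log2 change -1.66, SE 0.085, adjusted p = 2.7e-06). RAB6A, the ubiquitous paralog that organizes traffic at the Golgi, read 71.0, 78.6 and 77.9 against 60.8, 59.0 and 63.2 FPKM and fell (log2 change -0.31, adjusted p = 0.0013). RAB6C, a near copy of RAB6A, was listed only in knockdown replicate 3, at 0.0504 FPKM, and how reads of the pair were divided is uncertain.

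RAB43, a Golgi member (Entrez 339122, chromosome 3, 128806412 to 128840993, hg19), read 16.7, 16.9 and 14.4 FPKM in control and 9.08, 8.20 and 9.05 FPKM in knockdown libraries (log2 change -0.80, SE 0.079, adjusted p = 6.1e-05). Its locus overlaps the readthrough gene ISY1-RAB43, at 16.7 ± 0.811 and 14.4 ± 0.828 FPKM, so the division of reads between these symbols is uncertain. RAB33B, a Golgi member that also takes part in autophagy (Entrez 83452, chromosome 4, 140374961 to 140397069, hg19), read 4.40, 3.77 and 4.19 FPKM in control and 3.02, 2.53 and 2.01 FPKM in knockdown libraries (log2 change -0.55, adjusted p = 0.0041). The RAB33B groups did not overlap, but the call was lost under quantile normalization (adjusted p = 0.0833, lowest over the alternatives 0.00257). RAB34 and RAB36, related members found at the Golgi, fell by 0.20 and 0.29 on the log2 scale. The call on RAB34 was lost after median scaling (adjusted p = 0.0801, lowest over the alternatives 0.000637). That on RAB36 was lost in 6 of 13 alternatives, with adjusted p from 0.0131 to 0.610, among them the fits without control replicate 2 (0.0691) or 3 (0.0746) and without knockdown replicate 1 (0.0987) or 2 (0.0718).

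RAB1A, RAB1B, RAB2A and RAB2B, which serve transport between the ER and the Golgi, were not called lower. RAB1B, the most abundant of all members, read 222, 210.1 and 204 FPKM in control and 224, 218 and 220.5 FPKM in knockdown libraries and did not pass (log2 change 0.06, 95% confidence interval -0.04 to 0.15). RAB1A read 71.8, 77.9 and 75.7 against 89.6, 87.3 and 90.04 FPKM and rose, without overlap (log2 change 0.24, adjusted p = 0.0018). RAB2A rose from 31.3 ± 1.68 to 35.5 ± 0.304 FPKM (log2 change 0.18, limma adjusted p = 0.018), a call lost without control replicate 3 (0.0574) or knockdown replicate 2 (0.0573) or 3 (0.0543), with a lowest value of 0.00232 over the alternatives. RAB2B stood at 5.13 ± 0.451 and 5.29 ± 0.783 FPKM and did not pass. RAB18, RAB19 and RAB30 did not pass either, with 95% confidence intervals of -0.02 to 0.20, -0.24 to 0.37 and -0.54 to 0.30 for the log2 change.

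Of the 9 members placed in none of these lists 5 fell and 0 rose past the threshold. Some of them, such as RAB20 and RAB12, also act in endosomal routes, and this placement leaves them out of the endosomal counts above. RAB24, tied to autophagy (Entrez 53917, chromosome 5, 176728199 to 176730744, hg19), read 17.4, 15.1 and 16.1 FPKM in control and 7.40, 7.43 and 8.10 FPKM in knockdown libraries (2.12-fold lower, log2 change -0.99, SE 0.073, adjusted p = 1.3e-05). RAB20, of phagosome and endosome maturation (Entrez 55647, chromosome 13, 111175413 to 111214071, hg19), read 25.2, 24.7 and 23.7 FPKM in control and 13.8, 13.0 and 13.1 FPKM in knockdown libraries (log2 change -0.84, SE 0.055, adjusted p = 7.6e-06). In both genes every control library was above every knockdown library. RAB12, a member of endosomal and lysosomal routes, fell from 28.2 ± 0.940 to 21.9 ± 1.42 FPKM (log2 change -0.35).

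The RAB40 proteins carry a SOCS box and work with ubiquitin ligases. RAB40B (Entrez 10966, chromosome 17, 80614943 to 80656598, hg19) read 3.54, 3.65 and 2.85 FPKM in control and 1.502, 2.36 and 1.42 FPKM in knockdown libraries, without overlap (log2 change -0.67, adjusted p = 0.0042). RAB40C read 6.62, 5.66 and 7.27 against 6.96, 6.31 and 6.11 FPKM and RAB40A 0.402, 1.42 and 0.999 against 0.698, 1.49 and 1.08 FPKM, both with overlap and neither called. RAB42 (Entrez 115273, chromosome 1, 28918712 to 28921088, hg19) was low throughout, at 1.37, 0.788 and 1.28 FPKM in control and 0.521, 0.225 and 0.296 FPKM in knockdown libraries (log2 change -0.67, adjusted p = 0.0048). RAB40B and RAB42 lost their calls under quantile normalization, with adjusted p = 0.0528 (lowest over the alternatives 0.00121) and 0.0689 (0.00270). RAB23 and RAB28, both linked to cilia, did not pass, with 95% confidence intervals of -0.07 to 0.39 and -0.36 to 0.07 for the log2 change.

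Besides RAB9B and RAB6C, the members under the filter were RAB33A, RAB37, RAB39B and RAB41. RAB33A stood at 0.750, 0.321 and 0.411 FPKM in control and 0.300, 0.107 and 0.0969 FPKM in knockdown libraries, without overlap. RAB37 did not exceed 0.266 FPKM and RAB39B 0.0865 FPKM in any library, and RAB41 was listed only in control replicate 1, at 0.156 FPKM. None of the 6 was tested.

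Within subfamilies the paralogs' shares of the summed FPKM shifted, and these shares are given as a description without a test. In the RAB8 pair RAB8A held 80.6%, 72.5% and 69.9% of the sum in control and 88.8%, 90.6% and 90.3% in knockdown libraries, while the sum stood at 37.9 ± 0.496 and 46.1 ± 0.559 FPKM. In the RAB5 group RAB5C went from 58.2% ± 1.04 to 67.5% ± 1.60 and RAB5B from 34.0% ± 0.634 to 25.1% ± 1.14, with sums of 130.0 ± 5.81 and 131 ± 0.749 FPKM whose groups overlapped. RAB6B held 10.4% to 11.8% of the RAB6 sum in control and 3.39% to 3.799% in knockdown libraries. So the RAB8 and RAB5 groups changed in makeup, the RAB5 group at a similar total. In the RAB3 group RAB3B went from 16.3% ± 1.25 to 7.96% ± 1.30, and RAB3D from 65.0% ± 0.833 to 76.0% ± 1.04. RAB25 held 68.1% ± 1.19 of the sum with RAB11A and RAB11B in control and 60.2% ± 1.22 in knockdown libraries, as that sum went from 240.2 ± 6.27 to 169.5 ± 6.47 FPKM. The shares of RAB4A and RAB4B overlapped between groups, as did those of RAB2A and RAB2B, of RAB27A and RAB27B, and of RAB22A and RAB31.

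**Figure D3:**
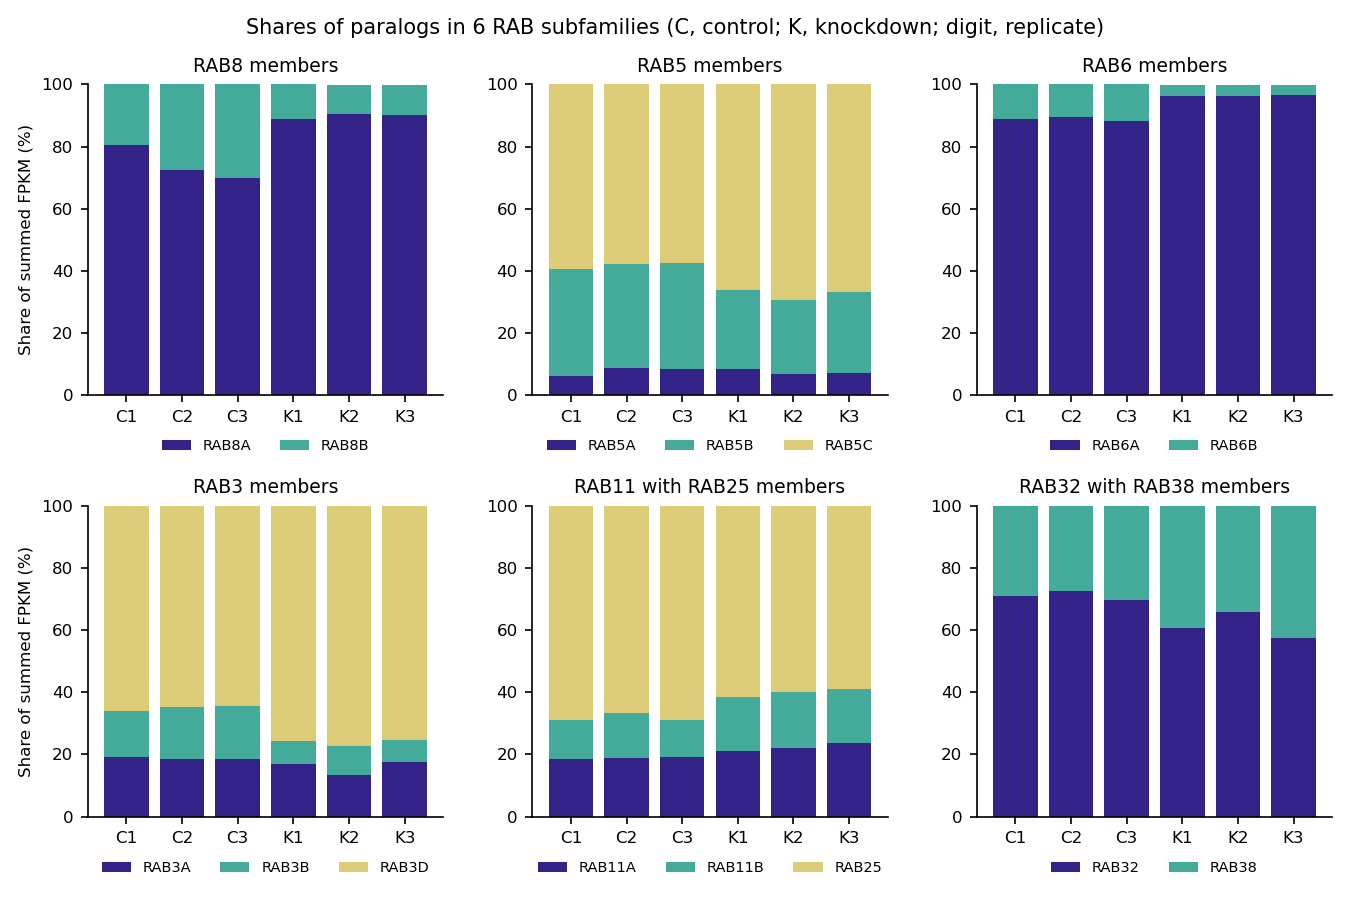
Share of each paralog in the summed FPKM of its subfamily (vertical axis, percent), with a stacked bar for each control and knockdown library. RAB8A takes 88.8% or more of the RAB8 bars in knockdown and 80.6% or less in control libraries.

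The summed level of all 58 members was 1731, 1719 and 1726 FPKM in control and 1572, 1532 and 1555 FPKM in knockdown libraries, a ratio of 0.900. RAB transcripts made up 0.280% to 0.284% of the FPKM total in control and 0.249% to 0.263% in knockdown libraries, the lowest being knockdown replicate 2, where small nucleolar RNAs held most. RAB25 alone was 61.7 FPKM lower on average and RAB13 27.3 FPKM lower. The 10 most abundant members, led by RAB1B, RAB7A and RAB25, averaged 43.4 to 216 FPKM and held 63.1% of the sum, and 4 of them rose, 4 fell and 2 did not pass. Of the 42 tested members below them 4 rose, 23 fell and 15 did not pass. Over all genes the calls also shifted with abundance. With a filter at 5 FPKM 47.4% of called genes were higher, against 40.4% with the filter at 0.5 FPKM. By role, the ratio of summed FPKM was lowest, at 0.692, for the 9 members outside the named roles. It was 0.832 for late endosomal, 0.835 for recycling, 0.898 for secretory, 0.976 for ER and Golgi and 1.04 for early endosomal members. The most abundant members weigh most in these ratios.

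The genes that load, switch and read the RABs were then described from lists of 159 symbols, of which 153 were listed in the files and 150 tested. Of these, 76 fell (50.7%) and 20 rose (13.3%), beside the same 37.9% and 25.6% of all genes. Exchange factors fell in 23 and rose in 3 of 46, and GTPase-activating proteins fell in 21 and rose in 2 of 35. Effectors of endosomal RABs fell in 12 and rose in 3 of 20, effectors of secretory RABs in 11 and 4 of 22, and effectors of recycling RABs in 5 and 1 of 10. Of 9 Golgi effectors 1 fell and 3 rose. Some genes also serve RABs of another list. The endosomal effectors include RILPL1 and RILPL2, which bind RAB8 and RAB10, and the Golgi effectors include RABEPK, a RAB9 effector.

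The list of prenylation and GDI genes divided, with 4 of 8 higher and 3 lower. CHM and CHML, the RAB escort proteins that present RABs for prenylation, both rose, CHM from 4.91 ± 0.939 to 8.01 ± 0.318 FPKM (log2 change 0.62, limma adjusted p = 0.0021) and CHML from 27.5 ± 4.50 to 40.7 ± 1.76 FPKM (log2 change 0.56, limma adjusted p = 0.0023). RABGGTA, the alpha subunit of the geranylgeranyl transferase, fell from 26.7 ± 2.81 to 16.6 ± 1.36 FPKM (log2 change -0.65, limma adjusted p = 0.00029). RABGGTB, the beta subunit, did not pass, at 83.3 ± 14.7 and 77.6 ± 3.36 FPKM. RABAC1, a RAB acceptor of the Golgi membrane, fell by 0.63 on the log2 scale, and RABIF, a chaperone of nucleotide-free RABs, rose by 0.43.

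Among exchange factors the largest falls were those of TRAPPC6A, a subunit of the TRAPP tethering complexes, from 36.1 ± 2.72 to 10.5 ± 1.24 FPKM (log2 change -1.69), and of DENND3, which activates RAB12, from 12.4 ± 0.339 to 4.18 ± 0.0723 FPKM (log2 change -1.37). TRAPPC6B, the paralog of TRAPPC6A, rose from 11.0 ± 0.195 to 14.1 ± 1.04 FPKM (log2 change 0.32, limma adjusted p = 0.0036). C9orf72, part of a complex tied to RAB exchange, fell by 0.87 on the log2 scale. The GTPase-activating proteins that fell furthest were EVI5L, TBC1D2 and RABGAP1L, with log2 changes of -0.98, -0.86 and -0.82, and TBC1D4, which acts on RAB10 and related members, rose from 6.99 ± 0.319 to 9.76 ± 0.339 FPKM.

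OPTN (optineurin), an effector of RAB8 and an autophagy receptor, showed the largest fall of the tested genes on these lists. It read 26.3, 27.9 and 28.6 FPKM in control and 6.03, 5.58 and 5.42 FPKM in knockdown libraries, far apart (log2 change -2.10, SE 0.065, adjusted p = 4.4e-07). SYTL1 and SYTL4, synaptotagmin-like effectors of RAB27, moved in opposite directions, SYTL1 from 11.4 ± 1.18 to 3.55 ± 0.476 FPKM (log2 change -1.44) and SYTL4 from 8.28 ± 0.355 to 15.0 ± 0.940 FPKM (log2 change 0.78). EXOC5, a subunit of the exocyst tether, rose by 0.76 on the log2 scale. Of the RAB11 family interacting proteins, RAB11FIP5, RAB11FIP1 and RAB11FIP3 fell by 0.78, 0.59 and 0.56, while EHD1, a membrane-remodelling ATPase of recycling endosomes, rose by 0.54. RILPL2 and RILPL1, which bind RAB8 and RAB10, fell by 0.99 and 0.92, and PIK3C3, the class III phosphatidylinositol kinase recruited by RAB5, by 0.68. Among Golgi effectors KIF20A, a kinesin that binds RAB6 and also works in mitosis, rose by 1.48, and RABEPK, a RAB9 effector, by 0.56.

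**Figure D4:**
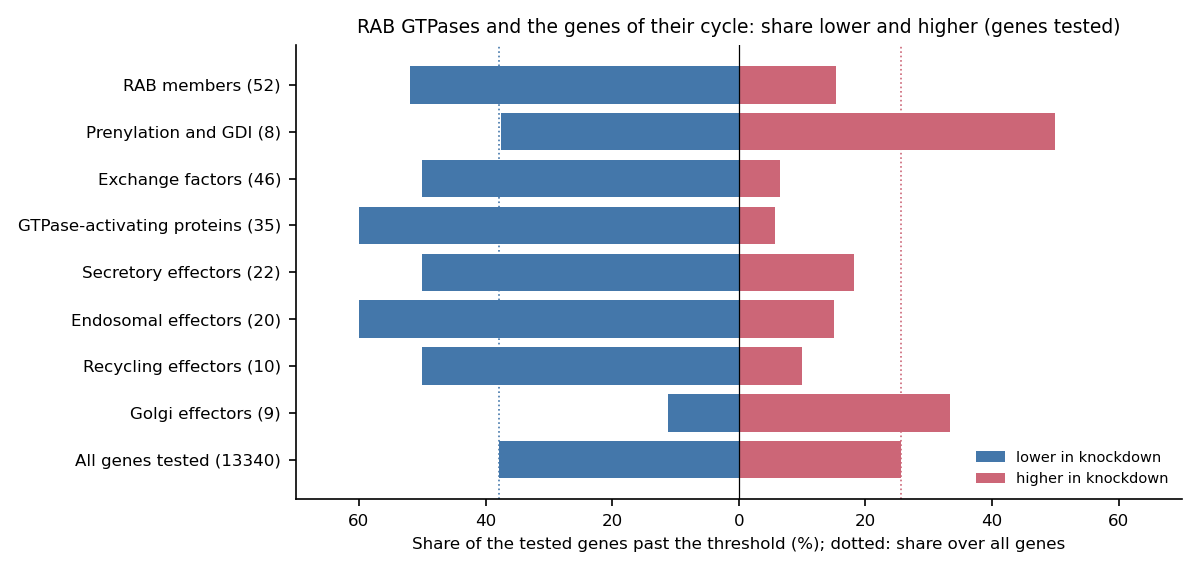
Share of tested genes past the threshold (percent; lower to the left, higher to the right) for the RAB members, each list of the RAB cycle and all genes, with the number tested in brackets and dotted lines at the shares over all genes. RAB members show 51.9% lower and 15.4% higher, beside 37.9% and 25.6% of all genes.

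RefSeq promoters (GRCh38.p14, first listed start of each gene) were matched for 46 of the 58 members and searched in the 250 bases before the start, on both strands. The forkhead core TGTTTAC was in 0 of 46 and in 2.98% of all 27305 promoters, and the looser TGTTTNC, which contains it, in 2 (RAB40A and RAB6C) and 15.6% of all. The AP-1 string TGANTCA was in 2 (6.60% of all), the NF-kB string GGGNNTTCC in 3 (5.81%), the CRE string TGACGTCA in 1 (1.77%) and the box CCAAT in 13 (33.0%). The E-box CACGTG, which MYC and TFE family factors can bind, was in 5 (6.49% of all), and in 4 of these it lay in the longer CACGTGAC (2.27% of all). These 4 are shown because they include a member that rose, a member that fell and 2 that did not pass. Each stretch is read on the strand of its gene, and capitals mark the longer string, which in RAB5A is matched on both strands at overlapping positions. The intervals are chr12:71754817-71754862 (plus strand), chr5:177303720-177303775 (minus), chr18:9708215-9708274 (plus) and chr3:19946948-19947009 (plus), in this order.
RAB21: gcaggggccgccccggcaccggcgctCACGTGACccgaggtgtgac
RAB24: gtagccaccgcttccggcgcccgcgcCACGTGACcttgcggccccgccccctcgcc
RAB31: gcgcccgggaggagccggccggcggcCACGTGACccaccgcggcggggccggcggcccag
RAB5A: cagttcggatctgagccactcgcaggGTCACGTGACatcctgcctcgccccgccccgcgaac
RAB21 rose 1.44-fold and RAB24 fell, to a 2.12-fold lower mean, while RAB31 and RAB5A did not pass. The string was shown for this mix, so no conclusion on direction is drawn from it. A match describes the letters in the window and not binding.

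The authors' deposited table of their own comparison lists 50 of the 58 members. The authors' deposited table gives 10 members a false discovery rate under 0.05 (22.1% of its 12275 genes have one), 9 lower and 1 higher, and all 10 were called in the same direction by limma. The lower ones are RAB26, RAB3B, RAB6B, RAB8B, RAB9A, RAB32, RAB24, RAB7L1 and RAB20, and the higher one is RAB8A. Of the 50 members present in both, 45 had the same sign of change. The match runs 1 way, as limma called 35 members and only these 10 reach that level in the authors' deposited table. There the log2 fold change is -1.93 for RAB6B, -1.44 for RAB26 and 0.68 for RAB8A. RAB25 (-0.55, false discovery rate 0.0543) and RAB21 (0.61, 0.0598) missed that level narrowly. RAB33B (0.158), RAB40B (0.161), RAB43 (0.171) and RAB13 (0.181) missed it by more, as did RAB5B (0.282) and RAB15 (0.305). RAB42 is not listed there.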

How the data were processed

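RNA-seq was done on 3 control and 3 FOXD3 knockdown libraries. The submitters' processing notes name TopHat2 2.0.12, Bowtie, Cufflinks 2.0.2, Cuffdiff and hg19 without role or order, and neither annotation nor strand setting is given in the sources used here. Per the file headers, each library has a table of FPKM values from the authors. A further deposited table holds the authors' FPKM by group with a log2 fold change, p-value and false discovery rate.

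FPKM was summed over the rows of a symbol, and a symbol not listed was set to 0, which can stand for a failed estimate. Genes averaging 0.5 FPKM or more were tested as log2(FPKM + 1) with limma 3.58.1 in R 4.3.3 (trended eBayes, both sides, adjustment after Benjamini and Hochberg across 13340 genes), with no covariate, since no batch or pairing is labelled. The script was tested on simulated data. FOXD3 had an exact permutation test. Full values are given for called members with a change of at least 0.5, their subfamilies and the 3 most abundant members, and up to 3 genes per list and direction were eligible for naming. RAB21, RAB15 and RABGGTB were named after their values were seen. Members, roles and lists were chosen with earlier results of these data known, and motifs after values had been seen. Some results are not reported here. Coordinates are hg19, 1-based. GENCODE 29 served only to find single-exon genes for the depth estimate.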

Additional observations from a re-analysis of the deposited data

How the results depend on the processing

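Pseudocounts of 0.1 and 0.5, no filter, a filter at 5 FPKM, median scaling, quantile normalization, limma without a trend or with robust estimation, and leaving out each library in turn gave 14 alternatives. Lower members numbered 21 to 27 and higher members 6 to 10 over these, against 27 and 8. The number tested differed, with 42 members at the filter of 5 FPKM, 58 without a filter and 52 in the others. Lower members were 21 of 42 at the filter of 5 FPKM and 21 of 52 under quantile normalization. Of 35 called members 25 kept their call in each alternative that tested them and 0 reversed. Among the 16 with a change of at least 0.5, RAB33B, RAB40B and RAB42 lost theirs. Of 17 uncalled members, 6 gained a call in some alternative: RAB1B, RAB18, RAB19, RAB23, RAB3D and RAB7A (RAB7A under quantile normalization, adjusted p = 0.0129, highest over the alternatives 0.989). RAB members higher by 0.5 log2 or more numbered 1, but 2 with a pseudocount of 0.1 or 0.5, 3 after median scaling, 2 after quantile normalization and 1 to 2 when a library was left out, and the cause was not tested. Without control replicate 3 the 1 member is not RAB8A. Genes of the RAB cycle numbered 59 to 78 lower and 14 to 28 higher, and 33 of 37 eligible for naming kept their call, the exceptions being APPL1, MYO5A, TBC1D30 and TRAPPC4. The knockdown minus control difference of FOXD3 was -0.196 to -0.118 FPKM when a library was left out, all from values under the filter. Without counts, the precision of low members is not known. The labels carry no replicate numbers, and those used here follow the order of the samples and only name a library. No paired analysis was possible because no pairing of libraries is labelled.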
